A study of Mus musculus with 8 samples.

Results

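The fetal liver arrays of a study of maternal food restriction (FR) in C57BL/6J mice are described here. They were taken by their titles (Fetus liver Group1, Group2 and Pool 1) and make up 6 of the 8 arrays of the series, the other 2 being from the mothers. The labels conflict in 1 field: the description of every array begins with a line that names rat hippocampi, and a Pool 2 that no title has, before it names mouse liver, so the titles, sources and strain were followed. Control mothers ate freely. FR mothers received 50% of the amount eaten by controls from gestation day 10 to 17, and livers were collected on gestation day 18. For each diet, 6 mothers gave 2 male fetuses each. The labels name no genetic change in either group, and mothers of both diets ate the same chow.

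Fetal liver RNA was pooled within a diet, either from 6 fetuses or from 3. A control pool and an FR pool were hybridized together on a 2-colour Agilent array and again with the dyes exchanged, which gave 3 pool pairs on 2 slides: the pools of 6 on slide 1, and Group1 and Group2, both pools of 3, on slide 2. Every value below is a log2 ratio of FR over control in the same array, averaged over the 2 dye orientations of a pool pair, so that 1 is a 2-fold higher signal after FR. The 3 values given for a gene are those of the pools of 6, Group1 and Group2, in that order, followed by their mean ± SD (n = 3 pool pairs). A gene is said to have risen or fallen where limma, a linear model with a variance shared across genes, gave an adjusted p under 0.05 over all genes tested. As many fetuses were pooled as were collected, 12 for each diet, and the labels do not say whether animals or litters recur between pools, so the p-values measure the spread between these pools and may be too small. A pool hides the spread between its fetuses.

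Late fetal liver is a mixed organ. Hepatocytes are leaving the fetal programme, in which they secrete alpha-fetoprotein and live on glucose from the placenta, and are building the enzymes they need after birth for glucose production, fat use, urea and bile. Beside them the organ makes blood cells: erythroid precursors, granulocytes, B-lineage precursors and others. Glucocorticoids, which rise in the fetus late in gestation and in the mother when food is short, induce many of the enzymes that hepatocytes acquire at this time. RNA of the whole organ does not tell fewer cells of a type from less RNA per cell, which applies to every blood cell, endothelial and hepatocyte gene below.

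Median spot signals on the fetal arrays were 119 to 284 in Cy3 and 233 to 310 in Cy5 over background medians of 47 to 68. Between 74.1% and 88.8% of spots were well above background. The number of arrays limits the precision. The label of male fetal liver was borne out by the Y-linked gene Ddx3y, at log2 levels of 11.3, 11.38 and 11.35 in the control pools against 6.14 in control mothers, and by Afp, the alpha-fetoprotein gene, at 17.0, 17.11 and 17.14 against 7.85. Xist, made in female cells, was at 6.54, 6.23 and 6.36 against 12.96. Between diets, Ddx3y did not pass the test (0.03, -0.10 and -0.11, mean -0.06 ± 0.08). Of the hepatocyte markers, Apoa1 did not pass either (0.56, 0.05 and 0.34, mean 0.31 ± 0.25, adjusted p = 0.0803), while Afp, Alb, Ttr, Trf and Ahsg fell, the last with -0.19, -0.49 and -0.26 (mean -0.31 ± 0.16), and the values of the others follow below.

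Of 21070 genes measured, 2398 rose (11.4%) and 3012 fell (14.3%), so 25.7% of all genes were called. These shares are the background against which the counts of every list below are to be read. Changes were small for most: 76 of the genes that rose and 131 of those that fell did so by 2-fold or more. The median over all genes was 0.01, and no called gene changed sign between pool pairs. Without the pools of 6, that is within slide 2, limma called 0 genes in either direction (smallest adjusted p 0.0524, 6130 genes with an unadjusted p under 0.05). With log ratios scaled to the same spread on every array it also called 0 (smallest adjusted p 0.0604, 7410 genes under 0.05 unadjusted). With median centring in place of the intensity-dependent (loess) correction, 706 genes rose and 2263 fell, so the share of calls that were higher went from 44.3% to 23.8%. Calls are therefore given below with the value of each pool pair. Across genes, the ratios of the pools of 6 correlated with those of Group1 (r = 0.827) and of Group2 (r = 0.783), and Group1 with Group2 (r = 0.715), as a description, since genes are not independent replicates.

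**Figure D1:**
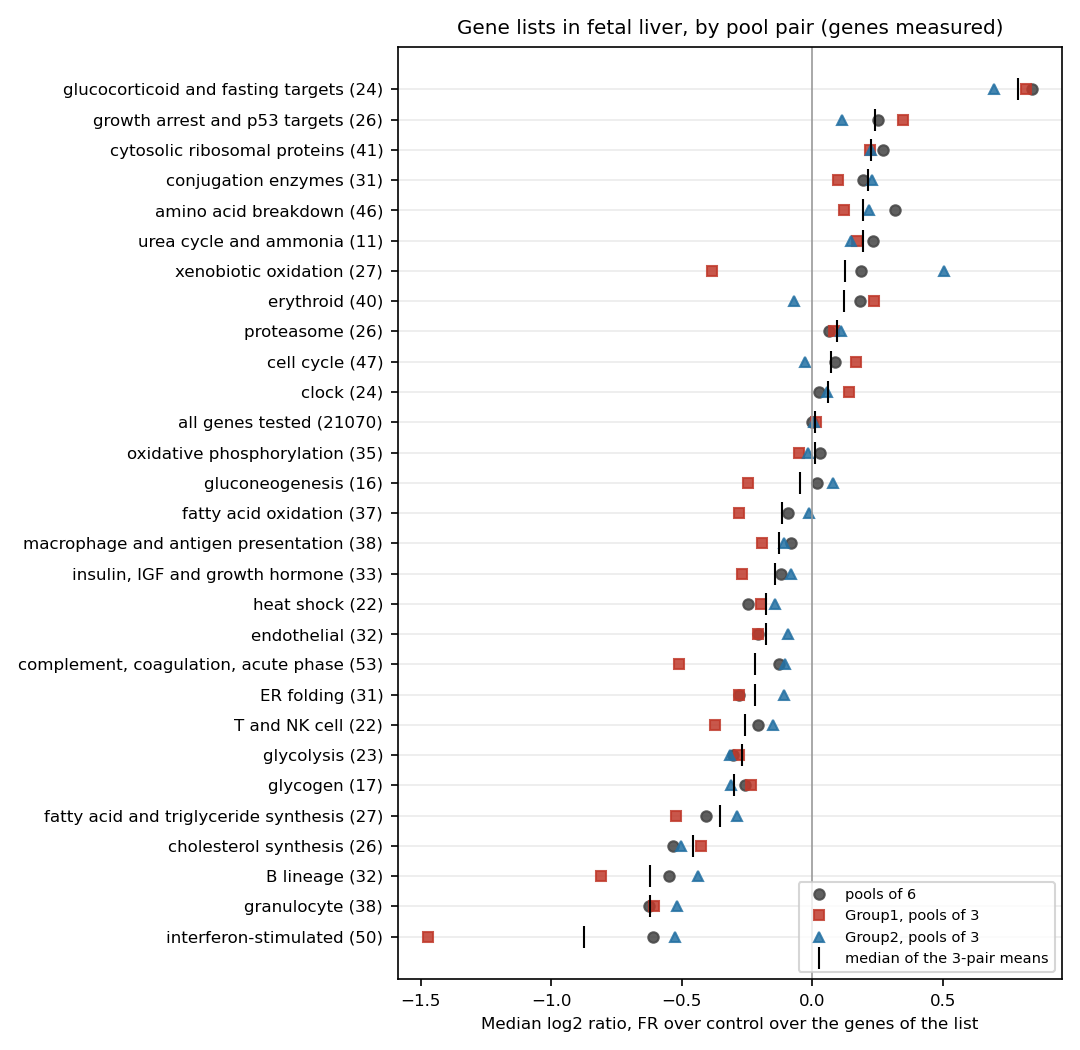
Median log2 ratio of FR over control (x axis) over the measured genes of 28 lists and over all genes (y axis, with the number of genes), in each of the 3 pool pairs (symbols) and for the means of the 3 pairs (bar). Glucocorticoid and fasting targets lie highest, with a median of 0.79, interferon-stimulated genes lowest, with -0.87 and a Group1 value of -1.47, and oxidative phosphorylation at 0.01, the median of all genes. The lists were chosen with earlier results of these data known.

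The genes that rose most included hepatocyte enzymes and secreted proteins. Sult2a6, which encodes a sulfotransferase that adds sulfate to bile acids and steroids, had log2 levels of 7.01, 7.35 and 6.58 in the control pools and 10.58, 10.21 and 10.78 in the FR pools. No FR pool overlapped a control pool, and its ratios were 3.58, 2.86 and 4.19 (mean 3.54 ± 0.67, adjusted p = 0.00494), or 11.7-fold. Its relative Sult2a4 rose too (2.07, 1.48 and 2.15, mean 1.90 ± 0.37). The 2 genes are closely similar, so their probes may read each other's RNA.

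Tat, the enzyme that starts the breakdown of tyrosine, had log2 levels of 10.12, 10.14 and 10.34 in the control pools and 12.52, 11.92 and 12.29 in the FR pools, again without overlap (2.05 ± 0.32, adjusted p = 0.00489, 4.13-fold). Hamp, the gene of hepcidin, the liver hormone that blocks iron export, had ratios of 2.35, 0.76 and 1.87 (mean 1.66 ± 0.81, adjusted p = 0.0193). The rise was smallest in Group1. Of 21 measured genes of iron handling, Hamp included, 2 rose and 4 fell (28.6% called, near the 25.7% of all genes), and the transferrin gene Trf fell (-0.13, -0.78 and -0.75, mean -0.55 ± 0.37), least in the pools of 6.

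Akr1b7, an aldose reductase relative, gave 2.11, 1.16 and 2.20 (mean 1.82 ± 0.58) and Apoa5, an apolipoprotein that lowers plasma triglyceride, 1.94, 0.75 and 2.16 (mean 1.62 ± 0.76). Both were lowest in Group1, as was the next gene. Rnase4, a secreted ribonuclease, rose as well (1.84, 1.30 and 1.76, mean 1.63 ± 0.29). Txnip, a thioredoxin-binding protein that restrains glucose uptake, was lowest in Group2 instead (1.91, 2.24 and 0.74, mean 1.63 ± 0.79), and a dimmer probe of it gave 0.96. The zinc finger gene Zc3h6 rose with 2 of its 3 probes (1.50, 1.99 and 1.42, mean 1.64 ± 0.30), the third giving 0.23. For Rprd2, a polymerase II regulator, the brightest of 6 probes gave 1.91, 2.20 and 1.58 (mean 1.90 ± 0.31), a second 1.12, and the other 4 lay between -0.01 and 0.11, so its rise depends on the probe. Cyp3a25, a xenobiotic-oxidizing cytochrome, ranged from 0.89 in Group1 to 3.05 in Group2 (pools of 6 2.09, mean 2.01 ± 1.08), with a second probe at 0.85.

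**Figure D2:**
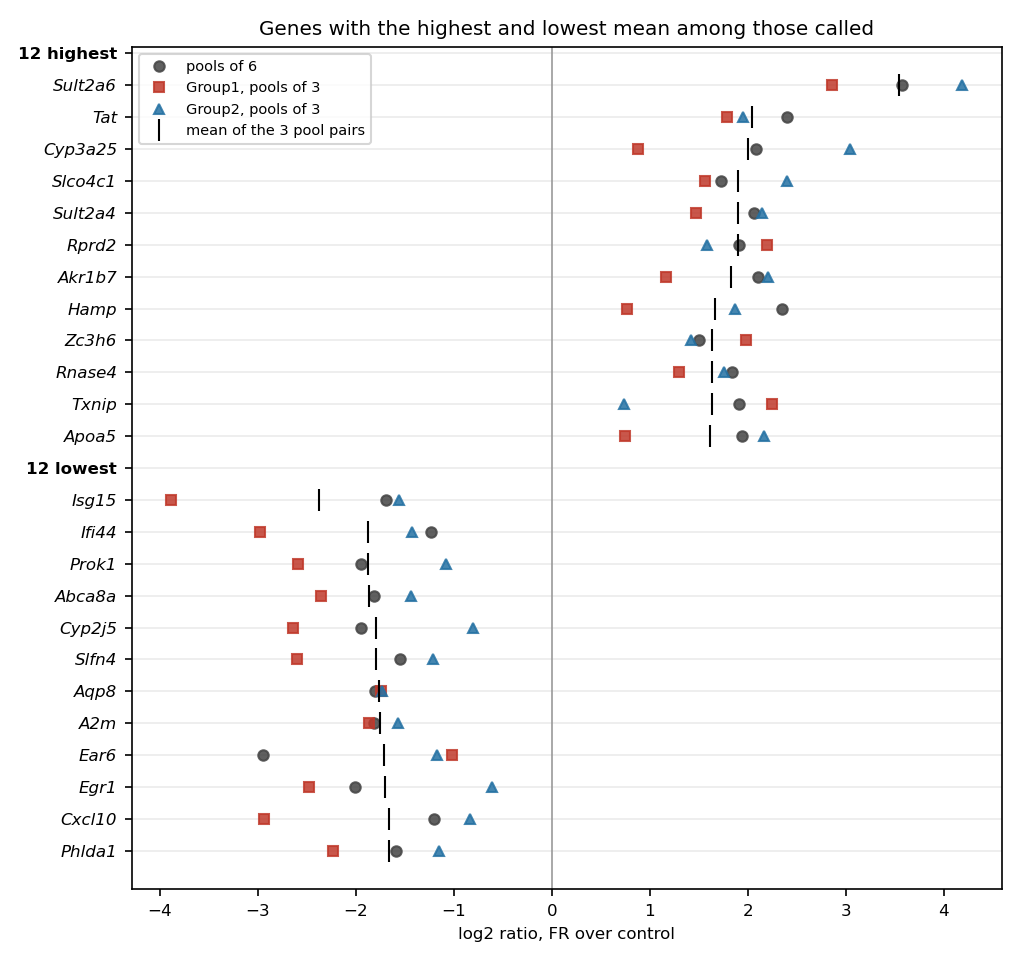
Log2 ratio of FR over control (x axis) in the 3 pool pairs (symbols) and their mean (bar) for the 12 genes with the highest and the 12 with the lowest mean among called genes (y axis). Sult2a6 lies apart at a mean of 3.54, Aqp8 shows almost no spread at -1.76 ± 0.04, and Isg15, Ifi44, Slfn4 and Cxcl10 are lowest in Group1.

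The genes that fell most belonged to several cell types and functions. Aqp8, a water and ammonia channel of hepatocytes, had the smallest p of all genes, with -1.80, -1.74 and -1.73 in the 3 pool pairs (mean -1.76 ± 0.04, adjusted p = 0.00376). The pairs were nearly equal. A2m, the broad protease inhibitor alpha-2-macroglobulin, was also even (-1.81, -1.87 and -1.57, mean -1.75 ± 0.16). Abca8a, a lipid transporter, gave -1.81, -2.36 and -1.43 (mean -1.87 ± 0.46) and Cyp2j5, an enzyme that oxidizes arachidonic acid, -1.95, -2.64 and -0.81 (mean -1.80 ± 0.93), both most negative in Group1. Egr1, an immediate early transcription factor, fell in the same order (-2.01, -2.48 and -0.61, mean -1.70 ± 0.97), and so did Phlda1 (-1.59, -2.24 and -1.15, mean -1.66 ± 0.55). Prok1, a secreted ligand, fell with its brightest probe (-1.94, -2.59 and -1.08, mean -1.87 ± 0.75), while another probe gave -0.12. Ear6, an eosinophil ribonuclease, was lowest in the pools of 6 instead (-2.95, -1.02 and -1.18, mean -1.72 ± 1.07).

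Among the steadiest rises were Tcte3, a dynein light chain gene (1.34, 1.39 and 1.41, mean 1.38 ± 0.03), Tpd52l1 (1.14, 1.18 and 1.14, mean 1.15 ± 0.02) and Rwdd3 (1.10, 1.19 and 1.21, mean 1.17 ± 0.06), each with an adjusted p of 0.00469. Their pool pairs were nearly equal. Rbm3, a cold-inducible RNA-binding protein, had 1.43, 1.27 and 1.27 (mean 1.32 ± 0.09) with its brightest probe, but another probe gave -0.25. Of 4 measured genes of the cold-inducible list 2 rose and 1 fell.

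A further 24 genes were left outside the fit because a spot of theirs was flagged on a fetal array, and 8 of them had a mean of 2-fold or more once all spots were kept. They are named after their values were seen. Cirbp, the cold-inducible relative of Rbm3, then had 3.12, 2.87 and 2.47 (mean 2.82 ± 0.32, adjusted p = 0.00394) and Trnp1, a nuclear protein gene, 2.96, 2.68 and 2.59 (mean 2.74 ± 0.20). Car1, the carbonic anhydrase of red cells, had 2.22, 1.92 and 1.33 (mean 1.82 ± 0.45) and Akr1c18, a steroid dehydrogenase, 2.19, 0.80 and 2.66 (mean 1.88 ± 0.97). The flag lay on 1 array of the pools of 6 in each case, and Group1 and Group2 had none. Prg2, the eosinophil major basic protein, had -2.15, -0.33 and -0.82 and did not pass (mean -1.10 ± 0.94, adjusted p = 0.0762).

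Glucocorticoid and fasting targets stood highest of the lists. Of 24 measured, 20 rose and 1 fell, which is 87.5% called against 25.7% of all genes, and the median was 0.79 against 0.01. This list and the others were chosen with earlier results of these data known, so such contrasts describe the lists and do not test them. Mt2 and Mt1, the metal-binding metallothioneins, gave 1.59, 1.64 and 1.04 (mean 1.42 ± 0.33) and 1.40, 1.36 and 0.78 (mean 1.18 ± 0.35). Ddit4, an inhibitor of the growth kinase mTOR, gave 1.31, 1.41 and 0.93 (mean 1.22 ± 0.25). These 3 genes were lowest in Group2. Lpin1, a phosphatidate phosphatase and coactivator, was nearly equal in the 3 pairs (1.21, 1.18 and 1.06, mean 1.15 ± 0.08), with its 3 other probes between 0.91 and 1.11, and so was Angptl4, a lipoprotein lipase inhibitor (1.20, 0.93 and 1.03, mean 1.05 ± 0.14).

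The classic receptor targets Tsc22d3, which encodes GILZ, and Fkbp5, a receptor cochaperone, rose by less, with 0.81, 0.62 and 0.85 (mean 0.76 ± 0.12) and 0.43, 0.38 and 0.60 (mean 0.47 ± 0.12). Of genes outside the naming rule, chosen after their values were seen, Lcn2, a neutrophil and acute phase protein, was the 1 gene of the list that fell (-0.50, -0.53 and -0.52, mean -0.52 ± 0.02), and Tdo2, the tryptophan dioxygenase, did not pass (0.06, 0.02 and 0.26, mean 0.11 ± 0.13). The receptor gene itself, Nr3c1, was at 0.06, 0.00 and 0.11 (mean 0.06 ± 0.05, adjusted p = 0.397). Of the 12 genes of receptor function and steroid supply, 2 rose and 2 fell. Hsd11b1, which regenerates active glucocorticoid, had -0.31, -0.78 and 0.04 (mean -0.35 ± 0.41) and Serpina6, the plasma carrier of glucocorticoid, 0.71, 1.15 and -0.68 (mean 0.40 ± 0.95). Neither passed, and both had opposite signs in Group1 and Group2. Srd5a1, a steroid 5-alpha reductase, fell (-0.86, -0.86 and -0.35, mean -0.69 ± 0.30), although a second probe gave -0.13.

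Amino acid breakdown moved the same way. Of 46 genes, 21 rose and 1 fell (47.8% called, median 0.20), and with median centring 9 rose and 4 fell. Beside Tat, the alanine aminotransferase gene Gpt gave 1.74, 1.39 and 1.23 (mean 1.45 ± 0.26), the proline oxidase gene Prodh 1.21, 1.22 and 1.07 (mean 1.17 ± 0.08) and the serine dehydratase gene Sds 0.90, 0.94 and 1.01 (mean 0.95 ± 0.06). All pool pairs were positive. Cth, which cleaves cystathionine to cysteine, was lowest in Group1 (1.15, 0.52 and 1.05, mean 0.91 ± 0.34) and Gldc, of the glycine cleavage system, highest in Group2 (0.64, 0.67 and 1.04, mean 0.79 ± 0.22). The gene that fell, named after its value was seen, was Haao of the kynurenine pathway (-0.32, -0.45 and -0.28, mean -0.35 ± 0.09).

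Of 11 genes of the urea cycle and ammonia handling, 5 rose and 1 fell. Asl, the argininosuccinate lyase, gave 1.00, 0.59 and 0.80 (mean 0.80 ± 0.21), Arg1, the liver arginase, 0.92, 0.56 and 0.77 (mean 0.75 ± 0.18), and Cps1, the first enzyme of the cycle, 0.97, 0.18 and 0.85 (mean 0.67 ± 0.42). Group1 was lowest in all of them. Otc, which makes citrulline within the same cycle, fell in every pair (-0.60, -0.83 and -0.53, mean -0.66 ± 0.16). In one-carbon metabolism, 6 of 28 genes rose and 3 fell (11.4% and 14.3% of all genes), 4 and 5 without Group2. Mat1a and Gnmt, which make and spend the liver's methyl donor, gave 1.09, 0.51 and 1.09 (mean 0.90 ± 0.33) and 0.81, 0.69 and 0.75 (mean 0.75 ± 0.06), whereas the choline dehydrogenase gene Chdh, which feeds the same cycle with betaine, fell (-1.04, -1.26 and -0.92, mean -1.08 ± 0.17).

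**Figure D3:**
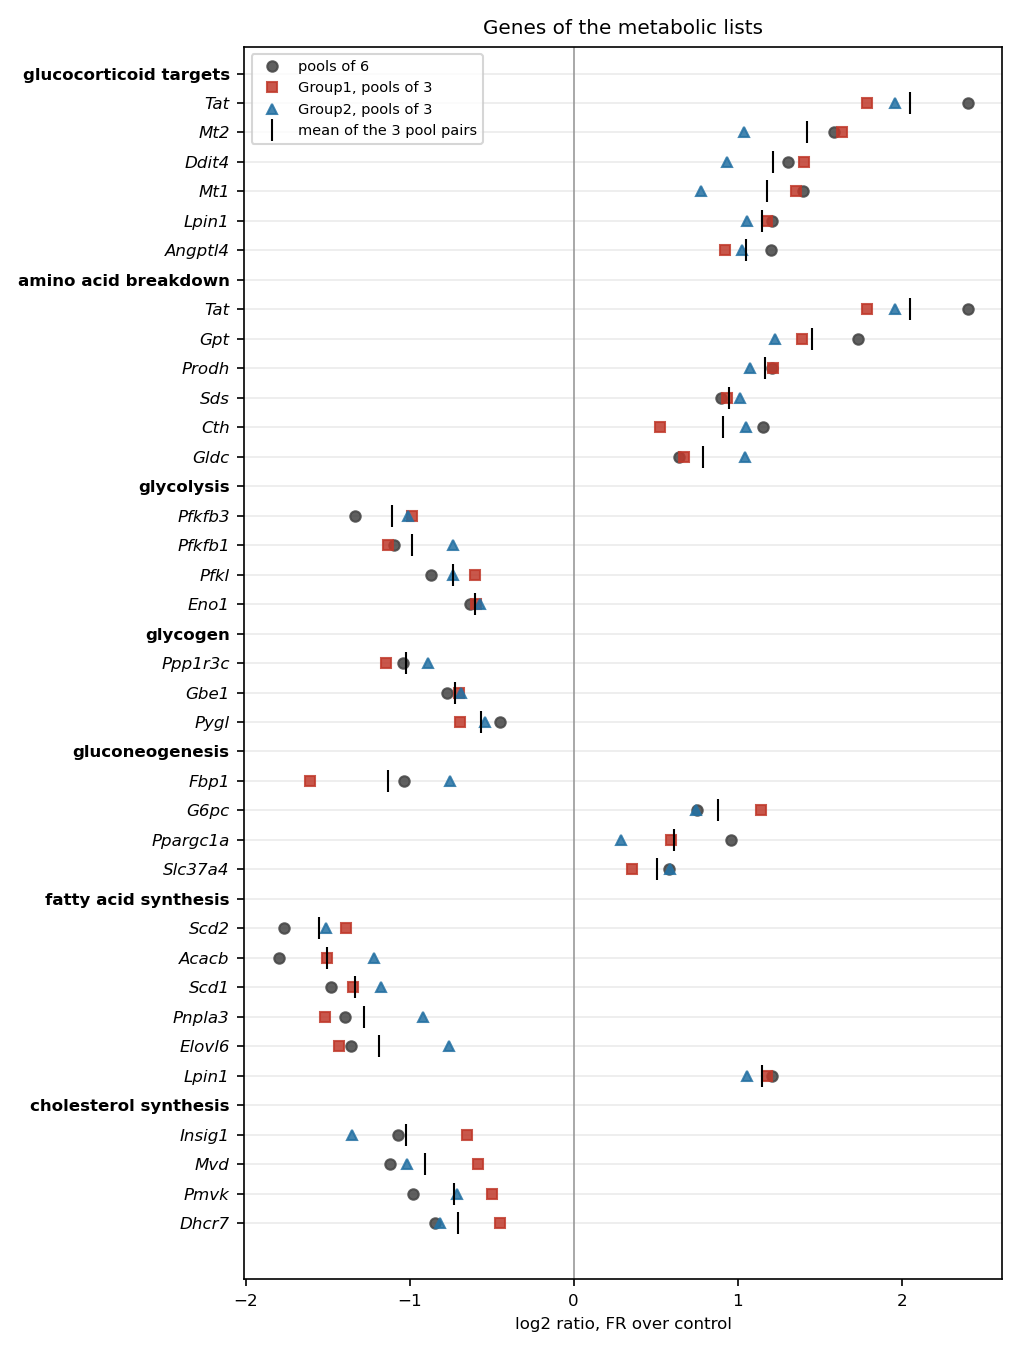
Log2 ratio of FR over control (x axis) in the 3 pool pairs (symbols) and their mean (bar) for up to 6 genes named in the text, those with the largest absolute mean, in each of 7 metabolic lists (y axis). The genes of glucocorticoid response and amino acid breakdown shown are all positive, those of glycogen and cholesterol synthesis all negative, and Fbp1 is negative in a list where G6pc, Ppargc1a and Slc37a4 are positive.

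Glucose handling split by pathway. Of 23 glycolysis genes 2 rose and 12 fell (60.9% called, median -0.27). Pfkfb3 and Pfkfb1, which set the level of the activator of phosphofructokinase, gave -1.33, -0.98 and -1.01 (mean -1.11 ± 0.20) and -1.09, -1.13 and -0.74 (mean -0.99 ± 0.22), although 2 dimmer Pfkfb3 probes gave -0.40 and -0.17. Pfkl, the liver phosphofructokinase, gave -0.87, -0.60 and -0.73 (mean -0.73 ± 0.13) and Eno1, an enolase, -0.63, -0.60 and -0.57 (mean -0.60 ± 0.03). Among the genes that rose, named after its value was seen, was the liver pyruvate kinase gene Pklr (0.38, 0.32 and 0.25, mean 0.31 ± 0.06).

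Of 17 glycogen genes 1 rose and 10 fell (64.7% called, median -0.30). The glycogen-targeting phosphatase subunit Ppp1r3c gave -1.04, -1.14 and -0.89 (mean -1.02 ± 0.13) and the branching enzyme gene Gbe1 -0.77, -0.70 and -0.69 (mean -0.72 ± 0.05). The liver phosphorylase gene Pygl, whose enzyme breaks glycogen down, fell beside them (-0.45, -0.70 and -0.54, mean -0.56 ± 0.12). In gluconeogenesis 5 of 16 genes rose and 1 fell, with a median of -0.04 (3 and 1 without Group1). G6pc, the glucose-6-phosphatase that releases free glucose, gave 0.75, 1.14 and 0.75 (mean 0.88 ± 0.23) and its transporter gene Slc37a4 0.58, 0.35 and 0.58 (mean 0.51 ± 0.13). Ppargc1a, a coactivator of fasting genes, was highest in the pools of 6 (0.96, 0.59 and 0.29, mean 0.61 ± 0.34). Fbp1, fructose-bisphosphatase, fell (-1.04, -1.61 and -0.75, mean -1.13 ± 0.43), most in Group1. Pck1, the other control enzyme of the pathway, had no value that passed the filters.

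Lipid synthesis fell. Of 27 genes of fatty acid and triglyceride synthesis 17 fell and 1 rose (66.7% called, median -0.35), and of 26 genes of cholesterol synthesis 20 fell and 0 rose (76.9% called, median -0.46), against 14.3% of all genes lower. Scd1 and Scd2, the desaturases that make monounsaturated fatty acids, gave -1.48, -1.34 and -1.17 (mean -1.33 ± 0.15) and -1.77, -1.39 and -1.51 (mean -1.55 ± 0.19). Elovl6, an elongase, gave -1.36, -1.43 and -0.76 (mean -1.18 ± 0.37) and Pnpla3, a lipid droplet protein, -1.40, -1.52 and -0.92 (mean -1.28 ± 0.31). Acacb, an acetyl-CoA carboxylase, gave -1.80, -1.50 and -1.22 (mean -1.51 ± 0.29) with 1 probe and -0.05 with another. The gene that rose was Lpin1, described above.

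The cholesterol genes fell least in Group1. It was the highest pool pair for 19 of the 26, against 36.6% of all genes. Mvd, a mevalonate pathway enzyme, gave -1.12, -0.58 and -1.02 (mean -0.90 ± 0.28), Pmvk, of the same pathway, -0.98, -0.50 and -0.71 (mean -0.73 ± 0.24) and Dhcr7, the last enzyme of the pathway, -0.85, -0.45 and -0.82 (mean -0.70 ± 0.22). Insig1, a sterol-sensing inhibitor that is itself a target of the sterol-regulated factor SREBP, gave -1.07, -0.65 and -1.35 (mean -1.02 ± 0.35).

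Genes of fatty acid oxidation went both ways, with 10 of 37 higher and 12 lower (59.5% called, median -0.12), 8 and 6 without Group1. The fatty acid carrier gene Fabp1 fell (-0.99, -1.53 and -0.22, mean -0.91 ± 0.66, adjusted p = 0.0499). Pdk4, a kinase that spares glucose by shutting pyruvate out of the mitochondrion, rose (0.77, 1.13 and 0.35, mean 0.75 ± 0.39). Cyp4a14, a microsomal fatty acid hydroxylase, had 1.32, 0.18 and 2.04 and did not pass (mean 1.18 ± 0.94, adjusted p = 0.0621). Group1 was the lowest pair for 28 of the 37 genes. Of 22 apolipoprotein and lipoprotein assembly genes, 3 rose and 4 fell, against 11.4% and 14.3% of all genes.

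Of 24 bile acid genes 5 rose and 3 fell, against 11.4% and 14.3% of all genes. Cyp8b1, which makes cholic acid, fell (-1.15, -1.38 and -1.05, mean -1.19 ± 0.17) and Baat, which conjugates bile acids to taurine and glycine, fell too (-1.0, -1.33 and -0.44, mean -0.92 ± 0.45). Slc51b and Slc51a, the 2 subunits of a bile acid exporter, rose (1.33, 0.74 and 1.81, mean 1.29 ± 0.54, and 0.47, 1.27 and 0.60, mean 0.78 ± 0.43), but the first was lowest and the other highest in Group1. The control signal of Slc51a was above background on 5 of the 6 arrays, so it passed the filter through FR only. Cyp7a1, the rate-limiting enzyme of bile acid synthesis, had -0.32, -0.46 and 0.06 and did not pass (mean -0.24 ± 0.27, adjusted p = 0.161).

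Conjugating enzymes rose more than they fell, with 14 of 31 higher and 3 lower (54.8% called, median 0.21). The sulfotransferases led. Beside Sult2a6 and Sult2a4, Sult1d1 gave 1.02, 0.77 and 1.08 (mean 0.96 ± 0.16), Sult1b1 0.73, 0.63 and 1.05 (mean 0.81 ± 0.22) and Sult1a1 0.82, 0.47 and 0.57 (mean 0.62 ± 0.18). The glutathione transferase gene Gsta2 rose evenly (0.52, 0.58 and 0.69, mean 0.60 ± 0.09) but was dim, with control levels of 6.37, 6.43 and 6.17. Its control signal was above background on 4 of the 6 arrays, so it passed the filter through FR only. The 3 that fell were all glucuronosyltransferases, Ugt2b5 (-0.59 ± 0.38), Ugt3a2 (-0.44 ± 0.26) and Ugt2b34 (-0.40 ± 0.07), named after their values were seen.

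Interferon-stimulated genes fell most as a group. These genes are switched on by type I and type II interferon through signalling factors that bind a short element, the interferon-stimulated response element, in their promoters, and many encode antiviral proteins. All 50 genes measured had negative values in all 3 pool pairs, 36 fell, 0 rose, and the median was -0.87 (72.0% called). Isg15, a ubiquitin-like modifier, had log2 levels of 12.51, 13.30 and 13.16 in the control pools and 10.81, 9.41 and 11.60 in the FR pools. The FR pools lay below every control pool, and the FR pool of Group1 was the lowest (-1.70, -3.88 and -1.56, mean -2.38 ± 1.31, adjusted p = 0.0249).

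The promoters of 3 of these genes, which are among the lowest or the most different between Group1 and Group2, are printed up to the base before the RefSeq start (build GRCm38.p6), with matches to the core of that element in capitals. They show where the core lies and how it is repeated. Isg15 (chr4:156200819-156200968, minus strand) holds 3 overlapping matches, the first 78 bases before the start. Rsad2, the antiviral enzyme viperin (chr12:26456453-26456602, minus strand), holds 1 at 119 bases, on the opposite strand, and Cxcl10, a chemokine that draws T cells (chr5:92348890-92349139, minus strand), 1 at 213 bases.
Isg15: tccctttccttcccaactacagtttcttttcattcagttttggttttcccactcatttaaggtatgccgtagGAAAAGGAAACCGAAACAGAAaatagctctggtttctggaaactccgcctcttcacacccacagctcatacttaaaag
Rsad2: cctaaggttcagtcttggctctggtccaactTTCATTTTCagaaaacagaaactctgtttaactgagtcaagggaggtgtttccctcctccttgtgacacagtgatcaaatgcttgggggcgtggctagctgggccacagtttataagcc
Cxcl10: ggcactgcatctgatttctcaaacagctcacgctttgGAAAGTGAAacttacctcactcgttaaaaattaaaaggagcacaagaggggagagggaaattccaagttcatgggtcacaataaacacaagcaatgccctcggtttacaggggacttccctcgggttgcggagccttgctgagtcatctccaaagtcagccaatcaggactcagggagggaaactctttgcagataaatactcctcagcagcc

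The core searched was GAAANNGAA, on both strands, from 250 bases before to 50 after the start. It was found in 21 of the 38 measured interferon-stimulated genes with a promoter entry (55.3%), against 8.94% of 13225 tested genes and 9.76% of all 27025 genes in the table. Genes of the list with a match had a median log2 ratio of -1.0 and those without -0.62. Among the 29 that fell 16 held a match, and among the 9 that were not called 5 did, so the share was alike (55.2% and 55.6%). A match is a description of the letters, not of binding.

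Rsad2 gave -1.43, -2.44 and -0.65 (mean -1.51 ± 0.90), with its 2 other probes at -1.59 and -1.49, and Cxcl10 -1.20, -2.94 and -0.83 (mean -1.66 ± 1.13). Slfn4, a myeloid Schlafen gene, gave -1.55, -2.60 and -1.22 (mean -1.79 ± 0.72) and Ifi27l2a -1.40, -2.63 and -0.93 (mean -1.65 ± 0.88). Group1 was the lowest pair each time. Ifi44 gave -1.23, -2.98 and -1.43 (mean -1.88 ± 0.96) with its brightest probe and -0.50 with another. The FR signal of that brightest probe was above background on 5 of the 6 arrays, so it passed the filter through control only. Iigp1, an immunity-related GTPase, had -1.41, -2.68 and -0.44 and did not pass (mean -1.51 ± 1.12, adjusted p = 0.0524). Of 17 interferon ligands, receptors and sensors 1 rose and 7 fell (47.1% called, median -0.21), 1 and 4 without Group1. The transcription factor gene Irf1 gave -0.67, -1.03 and -0.51 (mean -0.73 ± 0.27) and the receptor kinase gene Tyk2 -0.42, -0.55 and -0.32 (mean -0.43 ± 0.12), while Tlr7, a sensor of viral RNA, rose (0.43, 0.43 and 0.31, mean 0.39 ± 0.07).

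Blood cell genes fell by lineage. Of 38 granulocyte genes 33 fell and 0 rose (86.8% called, median -0.62), and of 32 B-lineage genes 20 fell and 1 rose (65.6% called, median -0.62). T and NK cell genes fell in 11 of 22 (median -0.26), 7 of 22 without Group1. Erythroid genes had a median of 0.12, with 5 of 40 higher and 4 lower, a share of 22.5% called that is near that of all genes.

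Neutrophil markers of late maturation fell in every pool pair. Ltf, the lactoferrin of secondary granules, gave -0.98, -1.21 and -0.91 (mean -1.03 ± 0.15), Ngp, of the same granules, -0.52, -0.66 and -0.58 (mean -0.59 ± 0.07) and S100a8, a cytosolic calcium-binding protein, -0.68, -0.77 and -0.51 (mean -0.66 ± 0.13). Lyz2, lysozyme, fell too (-1.07, -1.24 and -0.98, mean -1.10 ± 0.13). It is not a marker of late neutrophils alone, with a log2 level of 14.37 in control mothers against 7.43 for Ltf. Of the primary granule genes of early precursors, Elane, the neutrophil elastase, gave -0.23, -0.12 and -0.35 (mean -0.24 ± 0.12, adjusted p = 0.0451) and Mpo, myeloperoxidase, -0.13, -0.23 and -0.03, which did not pass (mean -0.13 ± 0.10, adjusted p = 0.147). Ctsg and Prtn3, which lie in the same granules, did not pass either (-0.02 and -0.16, named after their values were seen).

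Eosinophil genes were lowest in the pools of 6. Epx, the eosinophil peroxidase, gave -1.94, -0.91 and -1.03 (mean -1.29 ± 0.56), Prg3 -1.77, -0.96 and -1.0 (mean -1.24 ± 0.45) and the ribonuclease genes Ear1 and Ear6 -2.18, -0.75 and -0.92 (mean -1.29 ± 0.78) and -2.95, -1.02 and -1.18 (mean -1.72 ± 1.07). Group1 and Group2 were close to each other in all 4, and their difference from the pools of 6 was not tested. Mcpt8, a basophil protease, ran the other way (-0.96, -1.17 and -1.38, mean -1.17 ± 0.21).

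B-lineage genes of both precursor and immunoglobulin-bearing stages fell. Vpreb1 and Igll1, the surrogate light chain of pre-B cells, gave -0.99, -1.18 and -0.63 (mean -0.93 ± 0.28) and -0.94, -0.89 and -0.61 (mean -0.81 ± 0.18), the second with another probe at -0.14. Ighm, the mu heavy chain, gave -1.42, -1.73 and -0.95 (mean -1.37 ± 0.39), Blnk, an adaptor of the pre-B receptor, -1.24, -1.59 and -0.98 (mean -1.27 ± 0.31), and Pou2af1 and Spib, transcription factors, -1.54, -1.89 and -0.94 (mean -1.46 ± 0.48) and -1.25, -1.58 and -0.88 (mean -1.24 ± 0.35). Group1 was lowest in 25 of the 32 genes, against 34.5% of all genes. The receptor chain gene Cd79a (-0.13, -0.30 and -0.15, mean -0.19 ± 0.10, adjusted p = 0.0586) and the lineage factor gene Pax5 (mean 0.03 ± 0.04) did not pass. Cd38, named after its value was seen, was the 1 gene that rose (0.15, 0.32 and 0.38, mean 0.28 ± 0.12).

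Of the T and NK cell genes, Il7r, the interleukin-7 receptor that B precursors share, gave -0.77, -1.08 and -0.57 (mean -0.81 ± 0.26, another probe -0.22), Nkg7 -0.75, -0.74 and -0.57 (mean -0.69 ± 0.10), and the granzyme genes Gzmb and Gzma -0.71, -1.18 and -0.51 (mean -0.80 ± 0.34) and -0.57, -1.10 and -0.28 (mean -0.65 ± 0.42). The T cell receptor complex was split, with Cd3d lower (-0.49, -0.63 and -0.33, mean -0.48 ± 0.15) and Cd3e not passing (0.04, 0.02 and 0.03, mean 0.03 ± 0.01). Macrophage and antigen presentation genes were mixed, with 4 of 38 higher and 13 lower, 4 and 8 without Group1. Clec4f, a Kupffer cell lectin, fell (-1.05, -1.60 and -0.51, mean -1.05 ± 0.55), as did Cd74 and H2-Ab1 of the class II pathway (-0.83, -1.03 and -0.54, mean -0.80 ± 0.25, and -0.86, -0.64 and -0.71, mean -0.74 ± 0.11). Marco, a scavenger receptor, rose (0.80, 0.63 and 0.65, mean 0.69 ± 0.09). The general macrophage marker Adgre1, which encodes F4/80, fell by nearly the same amount in every pair (-0.48, -0.48 and -0.41, mean -0.46 ± 0.04), and the folate receptor gene Folr2 fell too (-0.69, -0.81 and -0.50, mean -0.67 ± 0.16). C1qa (mean -0.06 ± 0.07), Csf1r (-0.16 ± 0.04) and Vsig4 (0.09 ± 0.41) did not pass.

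In the erythroid list the pool pairs disagreed. Group2 was the lowest pair for 34 of 40 genes, against 31.5% of all genes, and the list's median was 0.18, 0.24 and -0.07. The embryonic globin gene Hba-x gave 1.04, 1.60 and 0.31 (mean 0.98 ± 0.65, adjusted p = 0.0408), the last heme enzyme gene Fech 0.75, 0.82 and 0.31 (mean 0.63 ± 0.28) and an earlier one, Urod, 0.61, 0.71 and 0.24 (mean 0.52 ± 0.24). Uros, which acts just before Urod, fell in every pair (-0.60, -0.49 and -0.48, mean -0.52 ± 0.07). The markers Hba-a1, adult globin (0.66, 0.80 and 0.02, mean 0.49 ± 0.42), Slc4a1, band 3 (0.80, 0.78 and 0.05, mean 0.54 ± 0.43) and Alas2, which starts heme synthesis (0.55, 0.43 and -0.19, mean 0.26 ± 0.39), did not pass. Without Group1 0 of the 40 genes rose in limma, and without Group2 17 did. Megakaryocyte genes had 1 of 21 higher and 5 lower, mast cell genes 1 of 12 and 3, and stem and progenitor genes 3 of 24 and 3, medians between -0.07 and -0.01. Among all genes 11.4% rose and 14.3% fell.

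**Figure D4:**
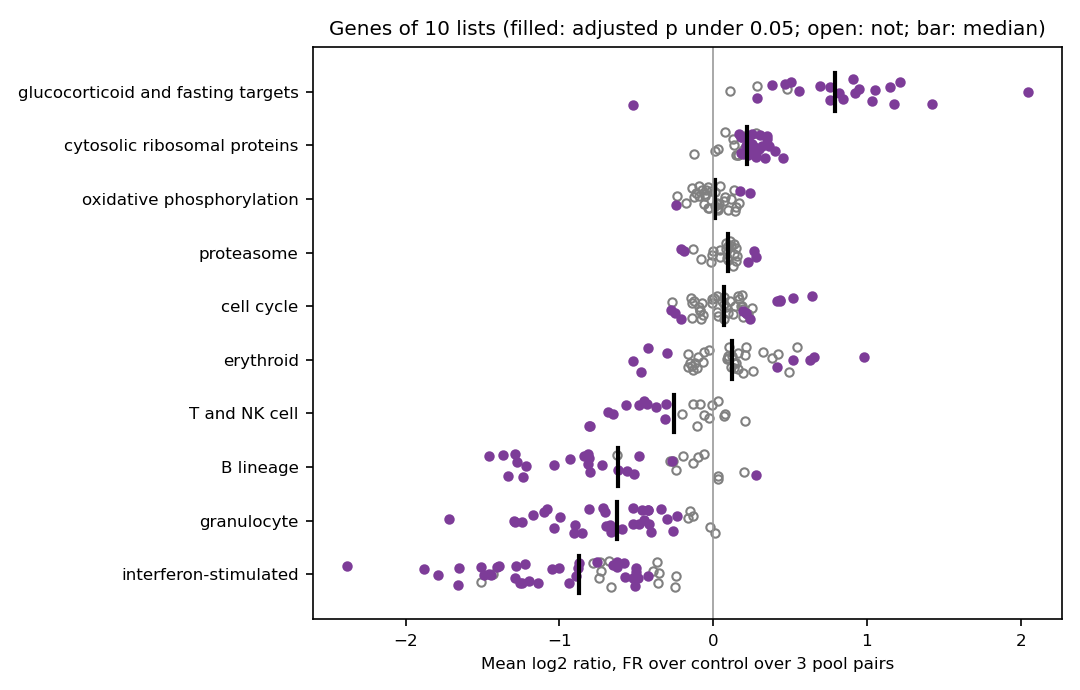
Mean log2 ratio of FR over control over the 3 pool pairs (x axis) of each measured gene in 10 lists (y axis), filled where limma's adjusted p was under 0.05, with the list's median as a bar. Interferon-stimulated genes all lie below 0, granulocyte genes have a median of -0.62, ribosomal protein genes lie in a narrow band around 0.22, and oxidative phosphorylation genes around 0.01.

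Group1 and Group2, both pools of 3 fetuses on the same slide, were then compared with each other. limma was fitted on the 6 fetal arrays with a term for the dye, so the spread it uses is that between hybridizations of the same RNA and not between animals, and the calls concern these 2 pool pairs only. The effect differed in 1875 genes (8.90%), being higher in Group1 in 692 (3.28%) and higher in Group2 in 1183 (5.61%). The pools of 6 lay between Group1 and Group2 in 1607 of the 1875. This count depended on the processing: it was 394 without the dye term, 0 with median centring or with scaling between arrays (113 and 1396 genes at an unadjusted p under 0.05 in limma), and 2 with the authors' deposited ratios.

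Of the interferon-stimulated genes 44 of 50 differed, all with the higher value in Group2, and Group1 was the lowest pair in all 50. To show which pool this came from, each gene's log2 levels in the 6 pools were set against their mean. The median over the list was 0.39, 0.54 and 0.45 in the control pools, and -0.31, -1.0 and -0.15 in the FR pools. The control pools were alike and the FR pool of Group1 stood apart. Among those that fell, the largest differences between Group1 and Group2 were those of Isg15 (-2.33, adjusted p = 0.00172), Cxcl10 (-2.11, adjusted p = 0.00018) and Rsad2 (-1.80, adjusted p = 0.000255).

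Hepatocyte enzymes gave the next pattern. Of 27 genes of xenobiotic oxidation 8 rose and 6 fell over the 3 pairs (51.9% called), and the list's median was 0.19, -0.39 and 0.50. Of them 18 differed with the higher value in Group2 and 1 with the higher value in Group1. Cyp3a11, a cytochrome of drug metabolism that appears around birth, ranged from 0.21 to 1.70 (pools of 6 1.33, mean 1.08 ± 0.78, adjusted p = 0.0492), and Cyp3a41a had 1.33, 0.14 and 1.82 (mean 1.10 ± 0.87, adjusted p = 0.0614). Genes of this cytochrome family are similar in sequence and their probes may share signal. Cyp2c23, a relative that makes epoxides, fell in every pair (-1.22, -1.52 and -0.92, mean -1.22 ± 0.30).

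Complement, coagulation and acute phase genes, which hepatocytes secrete, had 2 of 53 higher and 19 lower (39.6% called, median -0.22), with list medians of -0.13, -0.51 and -0.11. Of them 24 differed, all with the higher value in Group2. The most different gene of all tested, named like the next 3 after its value was seen, was Serpina3k of this list, a protease inhibitor, which was lower than control in Group1 and higher in Group2 (0.44, -1.74 and 1.89, difference -3.62, adjusted p = 1.14e-05). Its relative Serpina3m changed sign in the same way (0.70, -1.16 and 1.88, difference -3.04), as did, outside this list, Acnat2, a bile acid and fatty acid conjugating enzyme (-0.29, -2.13 and 1.13, difference -3.25), and the cytochrome gene Cyp2e1 (0.32, -1.23 and 1.39, difference -2.62). None of these 4 passed over the 3 pool pairs. Mbl1 and Mbl2, the mannose-binding lectins, gave -1.39, -1.47 and -0.79 (mean -1.22 ± 0.37) and -1.28, -2.45 and -0.29, the latter without passing (mean -1.34 ± 1.08, adjusted p = 0.0645). F11, a clotting factor, fell (-0.84, -1.06 and -0.55, mean -0.82 ± 0.26) and so did the acute phase gene Saa3 (-1.40, -0.99 and -1.44, mean -1.27 ± 0.25), while Hp, haptoglobin, rose (1.28, 0.32 and 0.98, mean 0.86 ± 0.49). For the level of each pool, the xenobiotic and the complement lists were lowest in the FR pool of Group1, with medians of -0.35 and -0.37 against a gene's mean over the 6 pools, and the erythroid list in the FR pool of Group2, with -0.20.

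Fewer genes went the other way. Beside Txnip (difference 1.51, adjusted p = 0.00566) and Hba-x (1.30), the histone genes H1f2 and H2bc22 rose more in Group1, with 1.49, 1.75 and 0.71 (mean 1.32 ± 0.54) and 1.02, 1.84 and 0.94 (mean 1.27 ± 0.50). Chga, a secretory granule protein of endocrine cells, gave 0.80, 1.68 and 0.51 (mean 1.00 ± 0.61), and Lgals2, a galectin, 1.08, 1.48 and 0.53 (mean 1.03 ± 0.48). Of the 40 erythroid genes 16 differed, all with the higher value in Group1.

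**Figure D5:**
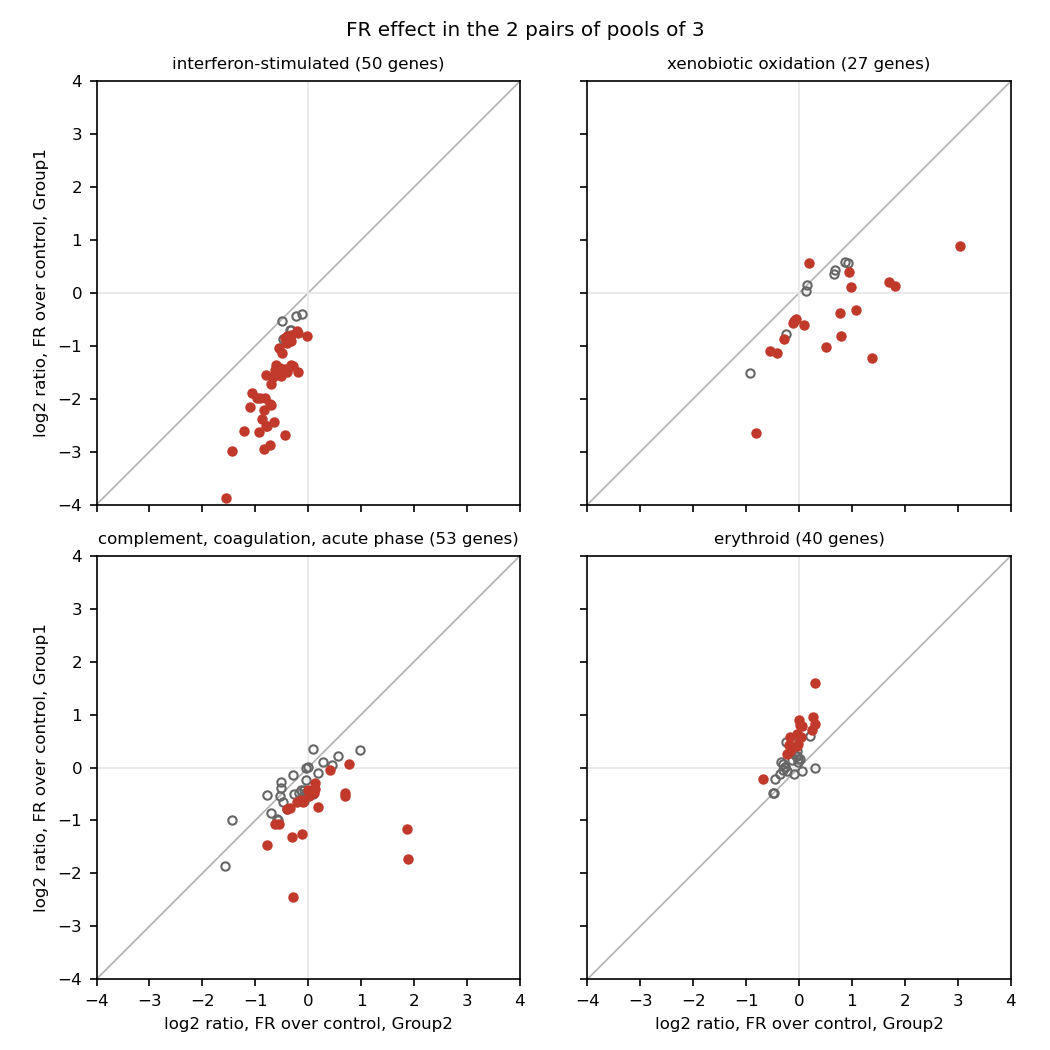
Log2 ratio of FR over control in Group1 (y axis) against Group2 (x axis) for the measured genes of 4 lists, with the line of equality, filled where the difference between Group1 and Group2 had a limma adjusted p under 0.05. All 50 interferon-stimulated genes lie below the line, most of the 27 xenobiotic and 53 complement genes do, and 16 filled erythroid genes lie above it.

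Markers of other tissues were followed in the same pools, since fetal dissections can carry neighbouring organs. Of 15 pancreas and gut genes 3 rose and 2 fell (11.4% and 14.3% of all genes), with list medians of 0.19, -0.01 and 0.55. The digestive enzyme genes Cpa1 and Prss2 had 1.00, -0.26 and 0.97 (mean 0.57 ± 0.72) and 0.50, -0.08 and 0.95 (mean 0.46 ± 0.52) and did not pass, being high in Group2 and negative in Group1. Cela1, an elastase, rose (0.40, 0.75 and 0.55, mean 0.57 ± 0.17), as did Amy2a5, an amylase (1.58, 0.90 and 1.34, mean 1.27 ± 0.35), in all 3 pairs, and Vil1, villin of gut and bile canaliculi, fell (-1.04, -1.14 and -0.95, mean -1.04 ± 0.10). The log2 level of Amy2a5 was 11.74 in control maternal liver and 10.43, 10.44 and 10.44 in the control fetal pools, and the source of its signal was not tested. The muscle genes Myl1 and Acta1 were highest in the pools of 6 and negative in Group1 (1.62, -0.52 and 0.40, mean 0.50 ± 1.08, and 1.05, -0.35 and -0.24, mean 0.16 ± 0.78), and did not pass. The part of such tissue in the differences between pool pairs was not tested.

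Structural cells of the liver were followed by 3 lists. Of 32 endothelial genes 12 fell and 1 rose (40.6% called, median -0.18), 5 and 1 without Group1. Clec4g, a sinusoidal lectin, gave -0.88, -1.46 and -0.50 (mean -0.95 ± 0.49, another probe -0.19) and Wnt2, a signal from sinusoidal cells to hepatocytes, -0.50, -0.90 and -0.27 (mean -0.56 ± 0.32), while the general endothelial markers Cdh5 and Pecam1 did not pass (means -0.05 ± 0.13 and -0.18 ± 0.11). In stellate, mesenchymal and mesothelial cells 4 of 30 genes rose and 8 fell, 0 and 4 in limma without Group1, and Lrat, which stores vitamin A in stellate cells, fell (-0.88, -1.45 and -0.56, mean -0.96 ± 0.45). Of 22 bile duct genes 5 fell and 0 rose (22.7% called, under the 25.7% of all genes), 2 and 1 without Group1, among them the fate factor gene Sox9 (-0.69, -1.30 and -0.76, mean -0.92 ± 0.33; 1 of its 2 other probes at 0.01) and Spp1, osteopontin (-0.82, -1.10 and -0.40, mean -0.77 ± 0.35). Krt19 and Epcam did not pass (means -0.13 ± 0.05 and -0.05 ± 0.11).

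Growth control was mixed. Of 33 genes of insulin, IGF and growth hormone signalling 6 rose and 11 fell (51.5% called, median -0.14). Igfbp1, which binds insulin-like growth factors and which insulin represses, rose evenly (1.16, 0.98 and 0.97, mean 1.04 ± 0.10, adjusted p = 0.00489). The growth factor genes themselves did not pass, with -0.30, -0.24 and 0.00 for Igf1 (mean -0.18 ± 0.16) and 0.45, -0.07 and 0.09 for Igf2 (mean 0.16 ± 0.26). Irs1, an insulin receptor substrate, fell (-0.79, -1.05 and -0.58, mean -0.81 ± 0.23, another probe -0.08), and Prlr, the prolactin receptor, did so with all 3 probes (-1.17, -1.13 and -0.57, mean -0.96 ± 0.34, others -1.70 and -1.81). Trib1, a pseudokinase linked to blood lipids, fell (-0.68, -0.91 and -0.47, mean -0.69 ± 0.22) and its relative Trib3, an inhibitor of insulin signalling, rose (0.69, 0.79 and 0.88, mean 0.79 ± 0.10). Lepr, the leptin receptor, had -0.61, -0.40 and 0.17 and did not pass (mean -0.28 ± 0.40).

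Imprinted genes, many of which set fetal growth, had 1 of 31 higher and 8 lower (29.0% called, median -0.09), a share near the 25.7% of all genes. Cdkn1c, a growth-restraining cell cycle inhibitor expressed from the maternal copy, fell most in Group2 (-0.86, -0.83 and -1.51, mean -1.07 ± 0.38). Mest, a growth-promoting gene of the paternal copy, fell (-0.85, -0.67 and -0.57, mean -0.70 ± 0.14), as did Grb10, an inhibitor of insulin signalling (-0.40, -0.86 and -0.58, mean -0.61 ± 0.23), and Gatm, which makes the creatine precursor (-0.71, -0.72 and -0.50, mean -0.65 ± 0.12). Phlda2, named after its value was seen, was the gene that rose (0.38, 0.41 and 0.35, mean 0.38 ± 0.03).

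Markers of the fetal and of the mature hepatocyte did not move as groups. Of 17 fetal markers 3 rose and 4 fell, against 11.4% and 14.3% of all genes. Among 28 genes that increase after birth 7 rose and 5 fell, 5 and 10 without Group2. Afp fell (-0.14, -0.35 and -0.57, mean -0.35 ± 0.22, adjusted p = 0.0441) and so did Alb, albumin (-0.32, -0.62 and -0.40, mean -0.45 ± 0.15), and Ttr, the thyroid hormone carrier transthyretin (-1.19, -1.20 and -0.52, mean -0.97 ± 0.39). Lin28b, an RNA-binding protein of fetal cells, rose (0.59, 0.84 and 0.58, mean 0.67 ± 0.15, another probe 0.12). Of 23 hepatocyte transcription factors 2 rose and 9 fell (47.8% called), 2 and 5 without Group1, among them Cebpa (-0.70, -1.07 and -0.34, mean -0.71 ± 0.37), Tbx3 (-0.86, -1.60 and -0.55, mean -1.0 ± 0.54) and Foxa2 (-0.70, -0.98 and -0.19, mean -0.62 ± 0.40), each lowest in Group1.

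Ribosomal protein genes shifted a little and together. Of 41 genes 26 rose and 0 fell (63.4% called, median 0.22), with a largest mean of 0.45 ± 0.04 for Rpl12 (0.48, 0.40 and 0.47). In limma this count was 0 with median centring and 6 with the authors' deposited ratios, and 9 without Group1, while the median stayed at 0.10 or above in these. Left without spots flagged non-uniform in Cy3, which took out all but 7 of these bright genes, the median was -0.08. Oxidative phosphorylation had 2 of 35 higher and 1 lower (8.57% called) and the proteasome 3 of 26 and 2 (19.2%), both under the share of all genes. Cell cycle genes had 8 of 47 higher and 3 lower, 0 and 3 with median centring and 3 and 0 without Group1, led by E2f2 (0.74, 0.94 and 0.24, mean 0.64 ± 0.36). Of 26 growth arrest and p53 target genes 11 rose and 3 fell, 3 and 3 with median centring. Gadd45b and Gadd45a, which slow cycling after stress, gave 1.10, 1.24 and 0.38 (mean 0.91 ± 0.46) and 0.57, 0.86 and 0.37 (mean 0.60 ± 0.25).

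Protein folding genes fell in 2 compartments. In the endoplasmic reticulum 3 of 31 genes rose and 13 fell (51.6% called, median -0.22), 7 falling without Group1. Derl2, of the export of misfolded proteins, gave -1.08, -0.94 and -0.80 (mean -0.94 ± 0.14), and Xbp1, a main transcription factor of the unfolded protein response, -0.75, -1.03 and -0.61 (mean -0.79 ± 0.21), while Atf6, another of its sensors, rose (0.99, 0.90 and 0.73, mean 0.87 ± 0.13). Of 22 heat shock genes 10 fell and 1 rose (50.0% called, median -0.18). Hsph1, a chaperone cofactor, gave -1.56, -1.44 and -0.94 (mean -1.31 ± 0.33), Hspa1a, the inducible chaperone, -0.86, -1.08 and -1.31 (mean -1.08 ± 0.23) and Chordc1, a partner of HSP90, -0.93, -1.07 and -0.62 (mean -0.87 ± 0.23). Among stress genes of the integrated response 6 of 29 rose and 6 fell, and Nupr1, a stress-induced nuclear protein, fell evenly (-1.33, -1.37 and -1.10, mean -1.27 ± 0.15). Antioxidant genes of the NRF2 pathway had 3 of 23 higher and 5 lower, immediate early genes 6 of 22 and 3, and inflammatory genes of the NF-kB pathway 4 of 23 and 6. Among all genes 11.4% rose and 14.3% fell.

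The clock showed 9 of 24 genes higher and 4 lower (54.2% called). In this oscillator BMAL1, the product of Arntl, drives repressors and output genes through E-box elements, and livers were collected at 1 time window, so a shift of phase and a change of level cannot be told apart. Nr1d2, the repressor REV-ERB beta, gave 1.30, 1.24 and 1.53 (mean 1.36 ± 0.15) and Per1 0.76, 0.89 and 0.64 (mean 0.76 ± 0.12). The repressors did not all move together. Cry2 rose (mean 0.90 ± 0.22, another probe 0.05) and Nr1d1 rose little (0.18 ± 0.06). Per2 (-0.31, -0.46 and -0.10, mean -0.29 ± 0.18, adjusted p = 0.0506), Cry1 (-0.24 ± 0.24) and Per3 (0.03 ± 0.01) did not pass. Nr1d1, Per2, Cry1 and Per3 are named after their values were seen. Hlf, Dbp and Tef, which carry the rhythm to output genes, gave 1.18, 0.99 and 1.00 (mean 1.05 ± 0.11), 0.75, 0.72 and 0.65 (mean 0.71 ± 0.05) and 0.67, 0.65 and 0.67 (mean 0.67 ± 0.01), with little spread, although 2 dimmer Tef probes gave 0.21 and 0.02. Arntl fell (-0.57, -0.65 and -0.58, mean -0.60 ± 0.04, adjusted p = 0.00501).

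The E-box CACGTG was found in 5 of 18 measured clock genes with a promoter entry, against 10.3% of tested genes, in the window used above and on both strands. It was in 3 of the 9 that rose, 0 of the 3 that fell and 2 of the 6 not called. For Per1 (chr11:69098749-69098948, plus strand) it began 166 bases and for Tef (chr15:81802523-81802672, plus strand) 127 bases before 1 of the 2 starts listed for each, shown in capitals because both genes rose with little spread. The heat shock core TTCNNGAA was in 5 of 17 heat shock genes, against 8.63%. Of the 9 that fell 2 held it, and of the 7 not called 3 did. Heat shock genes with the core had a median log2 ratio of -0.12 and those without -0.27. The core is shown in Hsph1 (chr5:149636337-149636436, minus strand), 33 bases before 1 of the 2 starts listed, since that gene fell most in its list. The sterol element TCACNCCAC was in 1 of 18 cholesterol genes, against 1.42%, and the D-box TTATGTAA in 1 of 18 clock genes, against 0.832%.
Per1: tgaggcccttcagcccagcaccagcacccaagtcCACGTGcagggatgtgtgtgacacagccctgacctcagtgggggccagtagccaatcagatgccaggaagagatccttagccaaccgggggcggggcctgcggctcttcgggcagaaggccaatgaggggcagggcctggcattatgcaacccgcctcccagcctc
Tef: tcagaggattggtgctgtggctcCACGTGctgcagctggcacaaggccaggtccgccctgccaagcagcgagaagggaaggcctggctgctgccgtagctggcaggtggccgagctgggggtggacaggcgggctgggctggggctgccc
Hsph1: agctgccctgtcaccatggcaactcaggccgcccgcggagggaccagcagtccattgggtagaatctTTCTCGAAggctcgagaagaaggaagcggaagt

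Genes of the response to low oxygen fell more than they rose, with 1 of 24 higher and 8 lower (37.5% called), 4 and 7 without Group2. P4ha2, a collagen prolyl hydroxylase, gave -1.42, -1.23 and -1.39 (mean -1.34 ± 0.10), Ndrg1 -0.94, -1.12 and -0.90 (mean -0.99 ± 0.12) and Egln3, the oxygen sensor PHD3, -1.10, -0.95 and -0.71 (mean -0.92 ± 0.20). Ddit4, which both low oxygen and glucocorticoid induce, was the 1 that rose. In these named genes the pool pairs differed little. Others of the list differed between Group1 and Group2, such as Slc2a1, higher in Group1, and Epas1, higher in Group2, both named after their values were seen. Nutrient transporters beside Aqp8 had 2 of 33 higher and 9 lower, against 11.4% and 14.3% of all genes. The cystine carrier subunit Slc3a1 gave -1.20, -1.41 and -0.77 (mean -1.13 ± 0.32) and the neutral amino acid carrier gene Slc1a4 -0.87, -0.90 and -0.70 (mean -0.82 ± 0.11). In autophagy and lysosomes 7 of 28 genes rose and 4 fell, with the cholesterol exporter gene Npc1 at 1.01, 0.89 and 0.84 (mean 0.91 ± 0.09), the protease gene Ctsl at 0.82, 0.55 and 0.87 (mean 0.75 ± 0.17) and the starvation kinase gene Ulk1 at 0.47, 0.32 and 0.51 (mean 0.43 ± 0.10).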

How the data were processed

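Pooled fetal liver RNA of 2 diets was compared on 6 2-colour Agilent arrays, with control and FR on each array and the dyes exchanged within a pool pair. Per the file headers, the deposited spot intensities were extracted with Agilent Feature Extraction, named as 9.5.3.1 in the submitters' processing notes. Slide 2 was extracted with a later version and holds median signals, so the mean signal was used on slide 1 and the median on slide 2. The spot flags (0 or 1) are also as deposited. The authors' log10 ratios of the value table were used as an alternative only, turned for dye. They equal log10 of Cy5 over Cy3 processed signal (within 0.01 for 100% of probes), with column medians of -0.0184 to 0.0155.

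Intensities were background-corrected with normexp (offset 50), loess-normalized within arrays and turned to FR over control with limma 3.58.1 in R 4.3.3. Spots flagged non-uniform in red or as population outliers were left out, and Cy3 non-uniform flags, 18.7% to 19.7% of spots on slide 1 and 0.00231% to 0.00692% on slide 2, were not used. A probe was kept if well above background for 1 diet on all 6 arrays, and the brightest stood for a gene. The RefSeq table gave a name to 27015 of 41174 probes through their accession, to 5016 through a current and to 798 through an outdated symbol. The 2 arrays of a pair were averaged, and the mean of 3 pairs was tested against 0 (lmFit, eBayes, Benjamini-Hochberg).

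The members and gene lists were chosen with earlier results of these data known. Genes were named by rule: the 12 highest and 12 lowest means among called genes, the 6 smallest p, each list's defining members and its 6 largest absolute means, the 6 largest differences between Group1 and Group2 each way among called genes, and a few genes of interest. Some genes are not reported here. The script was tested on simulated data. Promoters were read from a RefSeq table of GRCm38.p6, 250 bases before to 50 after the start.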

Additional observations from a re-analysis of the deposited data

How the results depend on the processing

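The counts of 2398 genes higher and 3012 lower stayed within 1.5 times under a smaller background offset, other filters on dim probes, no outlier flags, the mean of a gene's probes, median signals, the deposited ratios, and a fit of all 6 arrays with a dye term and the pool pair as a random block (3107 and 3793). With median centring 706 rose and 2263 fell, and 2757 calls were shared. With spots non-uniform in either colour left out, 16231 genes were tested, 1329 rose and 1838 fell; 9 of 24 glucocorticoid targets, 15 of 38 granulocyte and 34 of 50 interferon-stimulated genes were then measured, of which 7 rose, 14 fell and 20 fell. Scaling between arrays gave 0 and 0. Leaving out 1 pool pair gave 0 to 2149 genes higher and 0 to 2974 lower, the lowest without the pools of 6; without Group1 it was 1256 and 1533. The 1875 genes that differed between Group1 and Group2 became 1072 with the smaller offset, 1164 with the stricter flags, 394 without the dye term, 0 with median centring and with scaling, and 2 with the deposited ratios (2337 at an unadjusted p under 0.05 in limma). Of the named genes, 173 lost their call with scaling and 173 without the pools of 6. Without Group1 the call was lost for 15: Afp, Ahsg, E2f2, Egr1, Elane, Fabp1, Fech, Foxa2, Gadd45b, Hba-x, Ppargc1a, Srd5a1, Trf, Txnip and Urod. Without Group2 it was lost for 7: Afp, Ahsg, Cps1, Cyp3a11, Elane, Hp and Trf. With median centring 11 and with the stricter flags also 11 lost it. Rbm3 turned to -0.25 with the stricter flags, which is the value of its dimmer probe, since a gene is read from the brightest probe kept. The cause of the other changes was not tested. The slide as a random block could not be fitted over 3 pool pairs, and the values without the pools of 6 stand in for it. No paired analysis was possible because, beyond the pairing of control with FR within each array that every test already uses, only 1 replicate number recurs across groups.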
